A study of Mus musculus with 8 samples.

Results

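The genes described here are 35 mouse genes known for their part in pluripotent cells and in the germline, a hand-chosen set of transcription factors, signalling proteins, RNA-binding proteins and chromatin proteins. They were picked by name, and their probes were found through the RefSeq accession that the array gives each probe. A probe was found for 30 of the 35 genes, of 18842 genes with a probe named this way, and 16 of the 30 gave enough signal to be tested, of 13617 genes tested in all. Total RNA came from N31, a line of neural progenitor cells (NPC) that was made from embryonic stem cells of the mouse, and was hybridised to Agilent whole mouse genome arrays with a single dye. W20 72 h cells expressed W20 and were taken 72 h after reprogramming was started, and EGFP 72 h cells expressed the fluorescent protein EGFP, the control, and were taken at the same time. W20 NPC and EGFP NPC are the same 2 kinds of cells before reprogramming, kept in NPC medium with EGF and bFGF at 10 ng/ml each. Over the 72 h both kinds of cells received Dox (40 ng/ml). They spent the first 48 h in NPC medium and the last 24 h in GMEM with 10% KSR, ACTH, sodium pyruvate, nonessential amino acids, 2-mercaptoethanol and LIF at 1000 U/ml. The labels of the 72 h cells also name EGF and bFGF, with 10 ng/ml for bFGF. The labels do not name the factors that Dox switched on. Each of the 4 groups had 2 arrays of the 1 line, and nothing in the labels says whether these came from separate cultures, so that p-values measure only the spread between arrays, which may be technical.

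Pluripotent mouse cells are held in their naive state by a network of transcription factors that bind one another's genes, with LIF, acting through STAT3, as an outside signal that feeds into it. Reprogramming re-opens this network in a somatic cell, and its own copies of many late genes are switched on only as the process ends. Part of the network is shared with primordial germ cells, the founders of the germline, while meiotic and piRNA genes are normally kept silent by DNA methylation outside it. Neural progenitors keep some of the network's factors in use for their own purposes.

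Per array, 57.0% to 62.4% of spots were well above background and none was saturated. Replicate arrays had a median SD of 0.0302 to 0.0408 log2 units over the 12154 genes detected everywhere. W20 and EGFP arrays of a stage lay on 1 slide, with EGFP always at positions 1 and 2 and W20 at 3 and 4, so kind of cell and position cannot be told apart. All 72 h arrays were on one slide and all NPC arrays on another, so stage, slide and scan cannot be told apart either. Of the neural progenitor markers, Nes, Vim, Msi1, Cdh2, Pax6 and Slc1a3 were well above background on all 8 arrays, Fabp7 and Sox1 on 5, and Olig2 on 0. Fibroblast or mesenchymal markers moved with W20. Of the 7, those lower with W20 were 6 at 72 h and 7 in NPC, where 24.4% and 23.6% of all genes tested were lower. Their summed signal, in multiples of an array's 75th percentile, was 88.9 and 91.7 in W20 72 h cells, against 134.5 and 137.3 in EGFP 72 h cells. In NPC it was 101.4 and 98.6 with W20, against 146.6 and 166.8 with EGFP. Col1a2 made up most of these sums. Its mean log2 signal was 6.34 in W20 72 h cells, 6.90 in EGFP 72 h cells, 6.51 in W20 NPC and 7.04 in EGFP NPC. That of Col3a1, the next brightest, was 2.57, 3.55, 2.75 and 4.24 in the same order. Of these markers, Lum was not well above background in either 72 h group or in W20 NPC, and Postn was not so in W20 72 h cells. Lum passed the filter only through EGFP NPC and so had to be lower in W20 NPC. Of 5 endothelial markers, Kdr was well above background on all 4 arrays at 72 h and Tek on 3 of them, the list's summed signal was 0.206 and 0.189 in W20 72 h cells and 0.156 and 0.152 in EGFP 72 h cells, against 0.0262 and 0.033 in W20 NPC and 0.0251 and 0.025 in EGFP NPC, and Pecam1, Cdh5 and Tie1 were at or below background on all 8. Of 4 immune markers with a probe, only Csf1r was ever well above background, on 1 array. The part of these markers in the results below was not tested. In bulk RNA, fewer cells of a type and less RNA per cell cannot be told apart.

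Several of the genes that define a pluripotent or germ cell were not detected in any group. Of the 30 genes with a probe, 14 were well above background on both arrays in W20 72 h cells and 15 in EGFP 72 h cells, against 15 in W20 NPC and 15 in EGFP NPC. On all 8 arrays, 13 were: Zfp42, Dppa2, Dppa5a, Tbx3, Tfcp2l1, Utf1, Sall1, Sall4, Fbxo15, Lefty1, Tcl1, Rif1 and Nanos3. Esrrb, Nr5a2 and Lin28b passed in some groups only. The 14 others were not tested. Tdgf1, a co-receptor of Nodal, was well above background on 1 of 8 arrays, replicate 1 of EGFP NPC, and 13 genes were so on 0 of 8: Dppa3, Dppa4, Nr0b1, Lin28a, Gdf3, Lefty2, Eras, Tfap2c, Prdm1, Ddx4, Dazl, Mael and Zscan4c. Among these are Dppa3, a maternal factor that guards DNA methylation, Eras, an always active Ras protein of embryonic stem cells, Tfap2c and Prdm1, which specify primordial germ cells, and the germ cell RNA-binding proteins Ddx4 and Dazl. No probe was named here for Nanog, Fgf4, Prdm14, L1td1 or Sycp3, which are therefore not described. A signal not well above background is a bound and not a proof of silence.

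**Figure D1:**
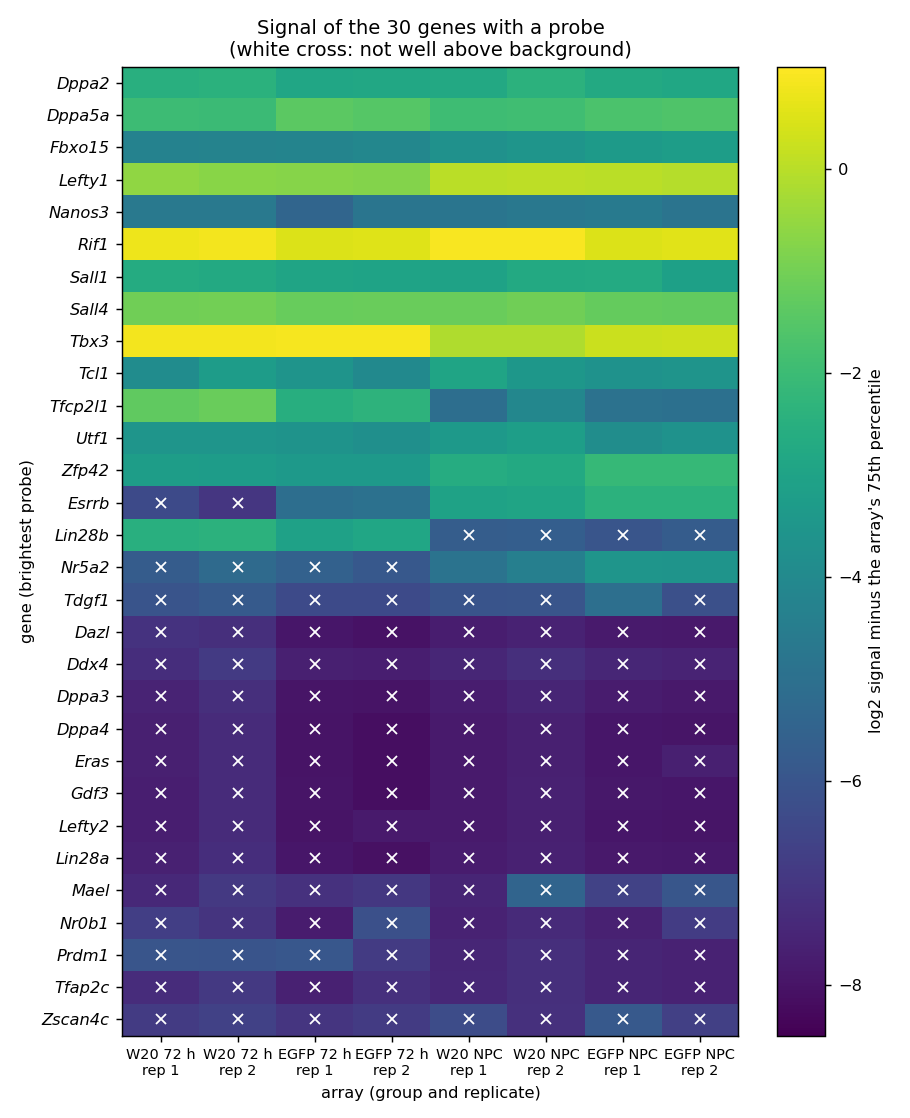
Signal of the 30 genes with a probe (rows) on the 8 arrays (columns, by group and replicate), as log2 signal minus the array's 75th percentile; colours may be read along a row, not between rows, since each row is a different probe. White crosses mark arrays on which the probe was not well above background: 13 genes carry no cross, 13 carry 8, and Esrrb, Lin28b, Nr5a2 and Tdgf1 carry some.

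Of 3 pairs of genes with a probe that have at most 1 coding gene between them, 2 pairs held 1 detected gene each. Dppa2 and Dppa4, which act as a pair on chromatin and have 0 coding genes between them in RefSeq, gave Dppa2 on 8 arrays and Dppa4 on 0. Lefty1 and Lefty2, both secreted antagonists of Nodal with 1 coding gene between them, gave Lefty1 on 8 arrays and Lefty2 on 0. Gdf3 and Dppa3, also neighbours, were both on 0. The signals of the 14 untested genes lay between -8.14 and -5.03, and the lowest signal well above background on an array was between -5.84 and -5.04.

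Promoter windows from RefSeq, build GRCm38.p6, are shown for 2 genes that were higher at 72 h than in NPC, Lin28b and Tfcp2l1, and 2 that were lower, Esrrb and Zfp42, chosen after their values were seen. A window runs from 250 bases before to 50 bases after the gene's start, and 22 of the 35 genes had at least 1. Capitals mark the letters of 5 motifs searched on both strands. These were the octamer bound by POU factors, ATGCAAAT, the E-box bound by MYC and other basic helix-loop-helix factors, CACGTG, a motif bound by KLF factors, CACACCC, a motif bound by SOX factors, ACAATG, and the extended half-site bound by ESRRB and NR5A2, CAAGGTCA. No marked matches overlap. Lin28b is at chr10:45470152-45470451 on the minus strand.
Lin28b: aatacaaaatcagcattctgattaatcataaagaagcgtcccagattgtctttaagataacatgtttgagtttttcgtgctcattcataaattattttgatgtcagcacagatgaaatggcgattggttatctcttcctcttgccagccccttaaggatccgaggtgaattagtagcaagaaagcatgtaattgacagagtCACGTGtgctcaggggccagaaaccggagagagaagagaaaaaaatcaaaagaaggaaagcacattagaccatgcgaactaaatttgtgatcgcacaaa
Tfcp2l1 is at chr1:118627695-118627994 on the plus strand.
Tfcp2l1: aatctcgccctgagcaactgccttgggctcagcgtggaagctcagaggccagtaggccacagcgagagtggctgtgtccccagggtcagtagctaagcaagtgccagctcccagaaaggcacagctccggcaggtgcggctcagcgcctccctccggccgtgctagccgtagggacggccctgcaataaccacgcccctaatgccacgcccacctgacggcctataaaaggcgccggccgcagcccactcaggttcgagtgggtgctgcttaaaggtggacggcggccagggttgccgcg
Esrrb has 2 starts listed, of which the outer one, at chr12:86360867-86361166 on the plus strand, is shown.
Esrrb: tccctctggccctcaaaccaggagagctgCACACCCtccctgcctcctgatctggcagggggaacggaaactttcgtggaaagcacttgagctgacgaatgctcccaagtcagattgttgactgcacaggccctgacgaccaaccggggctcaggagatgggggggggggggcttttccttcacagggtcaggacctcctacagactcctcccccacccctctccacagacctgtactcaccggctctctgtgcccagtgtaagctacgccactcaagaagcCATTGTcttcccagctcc
Zfp42 is at chr8:43306960-43307259 on the minus strand.
Zfp42: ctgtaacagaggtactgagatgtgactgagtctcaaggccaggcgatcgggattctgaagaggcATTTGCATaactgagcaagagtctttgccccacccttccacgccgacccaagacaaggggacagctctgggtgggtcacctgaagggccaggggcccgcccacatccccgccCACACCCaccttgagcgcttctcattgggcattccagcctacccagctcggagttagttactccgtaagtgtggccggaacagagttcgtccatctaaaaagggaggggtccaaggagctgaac
The Zfp42 window holds the octamer, on the other strand, and the KLF motif. The Lin28b window holds the E-box, the Esrrb window the KLF motif and, on the other strand, the SOX motif, and the Tfcp2l1 window none of the 5. Of all 32851 promoter windows, 1.74% hold the octamer, 7.15% the E-box, 7.95% the KLF motif, 12.6% the SOX motif and 1.56% the ESRRB and NR5A2 half-site. A match describes these letters only, and is neither a site shown to be bound nor a cause.

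Over the 72 h, Tfcp2l1, Lin28b and Tbx3 were higher and Esrrb, Nr5a2, Zfp42, Fbxo15 and Lefty1 lower than in NPC, with W20 and with EGFP. In W20 cells 3 of the 16 tested genes were higher, 5 lower and 8 did not pass the test, where 74.6% of all genes tested passed, 37.5% higher and 37.2% lower. In EGFP cells 4 were higher, 5 lower and 7 did not pass, against 69.9% of all genes, with 36.1% higher and 33.8% lower. So a smaller share of the 16 passed than of all genes in either kind of cell. The standard errors of the 16 ran from 0.0311 for Tbx3 to 0.300 for Tfcp2l1. Over all genes the median standard error was 0.0492, taken from W20 against EGFP in NPC. The part of precision in these shares was not tested. The median log2 difference of the 16 was -0.10 in W20 cells, against 0.0091 over all genes, and -0.06 in EGFP cells, against 0.012. These counts and medians describe only genes that passed the filter, and a gene that passed through a single stage, as Lin28b and Nr5a2 did, had to differ. The test is limma's moderated test with Benjamini-Hochberg adjustment over all genes tested and a threshold of 0.05, and differences are given ± the standard error (SE); every group has n = 2. The 2 comparisons use separate arrays and share their slides. Normexp background correction, an alternative to the scanner software's own, gave smaller differences for dim genes, and its values are given below where they were smaller by over 1.5 times.

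Tfcp2l1, a naive-state transcription factor downstream of LIF and STAT3, had log2 signals, relative to the array's 75th percentile, of -1.34 and -1.17 in W20 72 h cells and -2.55 and -2.36 in EGFP 72 h cells, against -5.08 and -4.11 in W20 NPC and -4.91 and -4.98 in EGFP NPC. All 4 arrays at 72 h lay above all 4 NPC arrays, and at 72 h W20 lay above EGFP. The difference between 72 h and NPC was 3.34 ± 0.300 log2 units with W20 (10.1-fold, adjusted p = 0.000133) and 2.49 ± 0.300 with EGFP (5.62-fold, adjusted p = 0.00059), and with normexp 2.17 and 1.28. The SD between its W20 NPC replicates was 0.692, the widest of its 4 groups. Of its other 2 probes, 1 was well above background on 1 array and the other on 0.

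Lin28b, an RNA-binding protein that blocks the maturation of let-7 microRNAs, was at -2.52 and -2.40 in W20 72 h cells and -3.08 and -2.87 in EGFP 72 h cells, against -5.70 and -5.64 in W20 NPC and -5.99 and -5.73 in EGFP NPC. None of the 4 NPC arrays was well above background and all 4 arrays at 72 h were. It was therefore at least 7.85-fold higher at 72 h with W20 (adjusted p = 2.52e-06) and at least 6.30-fold higher with EGFP (adjusted p = 5.96e-06). The bound takes, per dim array, the higher of the probe's own signal and the lowest signal well above background there. It depends on the background correction, since with normexp the differences were only 1.54 log2 units with W20 and 1.14 with EGFP. For a dimmer Lin28b probe, no array at either stage rose well above background, so the bounds rest on the brighter probe alone. The dimmer one gave differences of the same sign, 1.59 log2 units with W20 and 1.19 with EGFP, between background signals. Lin28a, the paralog of Lin28b in embryonic stem cells, was on 0 of 8 arrays.

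Tbx3, a T-box factor that LIF signalling sustains in embryonic stem cells, was at 0.83 and 0.84 in W20 72 h cells and 0.88 and 0.85 in EGFP 72 h cells, against -0.12 and -0.13 in W20 NPC and 0.22 and 0.27 in EGFP NPC. The 72 h arrays of both kinds of cells lay together and above all NPC arrays, while in NPC the W20 arrays lay below the EGFP arrays. Tbx3 was higher at 72 h by 0.96 ± 0.0311 with W20 (adjusted p = 2.13e-06) and by 0.62 ± 0.0311 with EGFP (adjusted p = 1.62e-05).

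Esrrb, an orphan nuclear receptor of the naive network, was at -6.37 and -7.00 in W20 72 h cells, neither well above background, and at -5.07 and -4.96 in EGFP 72 h cells, against -3.04 and -2.97 in W20 NPC and -2.41 and -2.40 in EGFP NPC. The 4 groups did not overlap, with EGFP NPC highest and W20 72 h lowest. Esrrb fell by 2.61 ± 0.193 log2 units with EGFP, a 6.09-fold difference (adjusted p = 7.72e-05). With W20 it was at least 4.61-fold lower at 72 h (adjusted p = 1.36e-05). These 2 values cannot be ranked, since the second is a bound. With normexp the differences were only -1.04 with W20 and -1.23 with EGFP.

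Nr5a2, a nuclear receptor that binds the same kind of sequence as Esrrb and can stand in for Pou5f1 in reprogramming, was at -5.73 and -5.22 in W20 72 h cells and -5.54 and -5.88 in EGFP 72 h cells, against -4.89 and -4.40 in W20 NPC and -3.55 and -3.59 in EGFP NPC. All 4 arrays at 72 h were not well above background, and the NPC arrays lay above them. It was at least 1.47-fold lower at 72 h with W20 (adjusted p = 0.0196) and at least 4.35-fold lower with EGFP (adjusted p = 0.000389), while with normexp the differences were only -0.18 and -0.70 log2 units. The W20 call ended without replicate 1 of W20 72 h (difference -0.57, adjusted p = 0.0914), without replicate 2 of W20 NPC (-0.58, adjusted p = 0.0895) and with only the 4 arrays compared in the fit (-0.82, adjusted p = 0.0526).

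Zfp42, also called Rex1, a zinc finger protein used as a marker of naive cells, was at -3.23 and -3.23 in W20 72 h cells and -3.34 and -3.35 in EGFP 72 h cells, against -2.63 and -2.72 in W20 NPC and -2.14 and -2.13 in EGFP NPC. All groups were apart, and the W20 and EGFP arrays were farther from each other in NPC than at 72 h. Zfp42 fell by 0.55 ± 0.0375 with W20 (adjusted p = 3.95e-05) and fell by 1.21 ± 0.0375 with EGFP (adjusted p = 3.12e-06), against -0.76 with normexp.

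Fbxo15, an F-box protein whose promoter served as the first selection marker for induced pluripotent cells, was at -4.30 and -4.27 in W20 72 h cells and -4.22 and -4.09 in EGFP 72 h cells, against -3.71 and -3.54 in W20 NPC and -3.31 and -3.20 in EGFP NPC. The 72 h arrays all lay below the NPC arrays. It fell by 0.66 ± 0.0748 with W20 (adjusted p = 0.000392) and fell by 0.90 ± 0.0748 with EGFP (adjusted p = 0.000121), against -0.19 and -0.51 with normexp.

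Lefty1 was at -0.56 and -0.68 in W20 72 h cells and -0.72 and -0.77 in EGFP 72 h cells, against 0.001 and 0.0566 in W20 NPC and 0.0056 and -0.0589 in EGFP NPC. Again all 72 h arrays lay below all NPC arrays, and in NPC the 2 kinds of cells overlapped. Lefty1 fell by 0.65 ± 0.0517 with W20 (adjusted p = 7.84e-05) and fell by 0.72 ± 0.0517 with EGFP (adjusted p = 6.84e-05).

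Dppa5a, an RNA-binding protein with a KH domain found in embryonic stem cells, was at -1.99 and -2.03 in W20 72 h cells and -1.38 and -1.51 in EGFP 72 h cells, against -1.93 and -1.91 in W20 NPC and -1.68 and -1.62 in EGFP NPC. W20 arrays lay below EGFP arrays at both stages. With EGFP it was higher at 72 h by 0.20 ± 0.0523 (adjusted p = 0.0147), a call that ended without replicate 1 of EGFP 72 h (0.14, adjusted p = 0.0564), without replicate 1 of EGFP NPC (0.17, adjusted p = 0.0754) and with spike-in scaling (0.22, adjusted p = 0.0639). With W20 its difference was -0.09 ± 0.0523 and did not pass (adjusted p = 0.179).

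**Figure D2:**
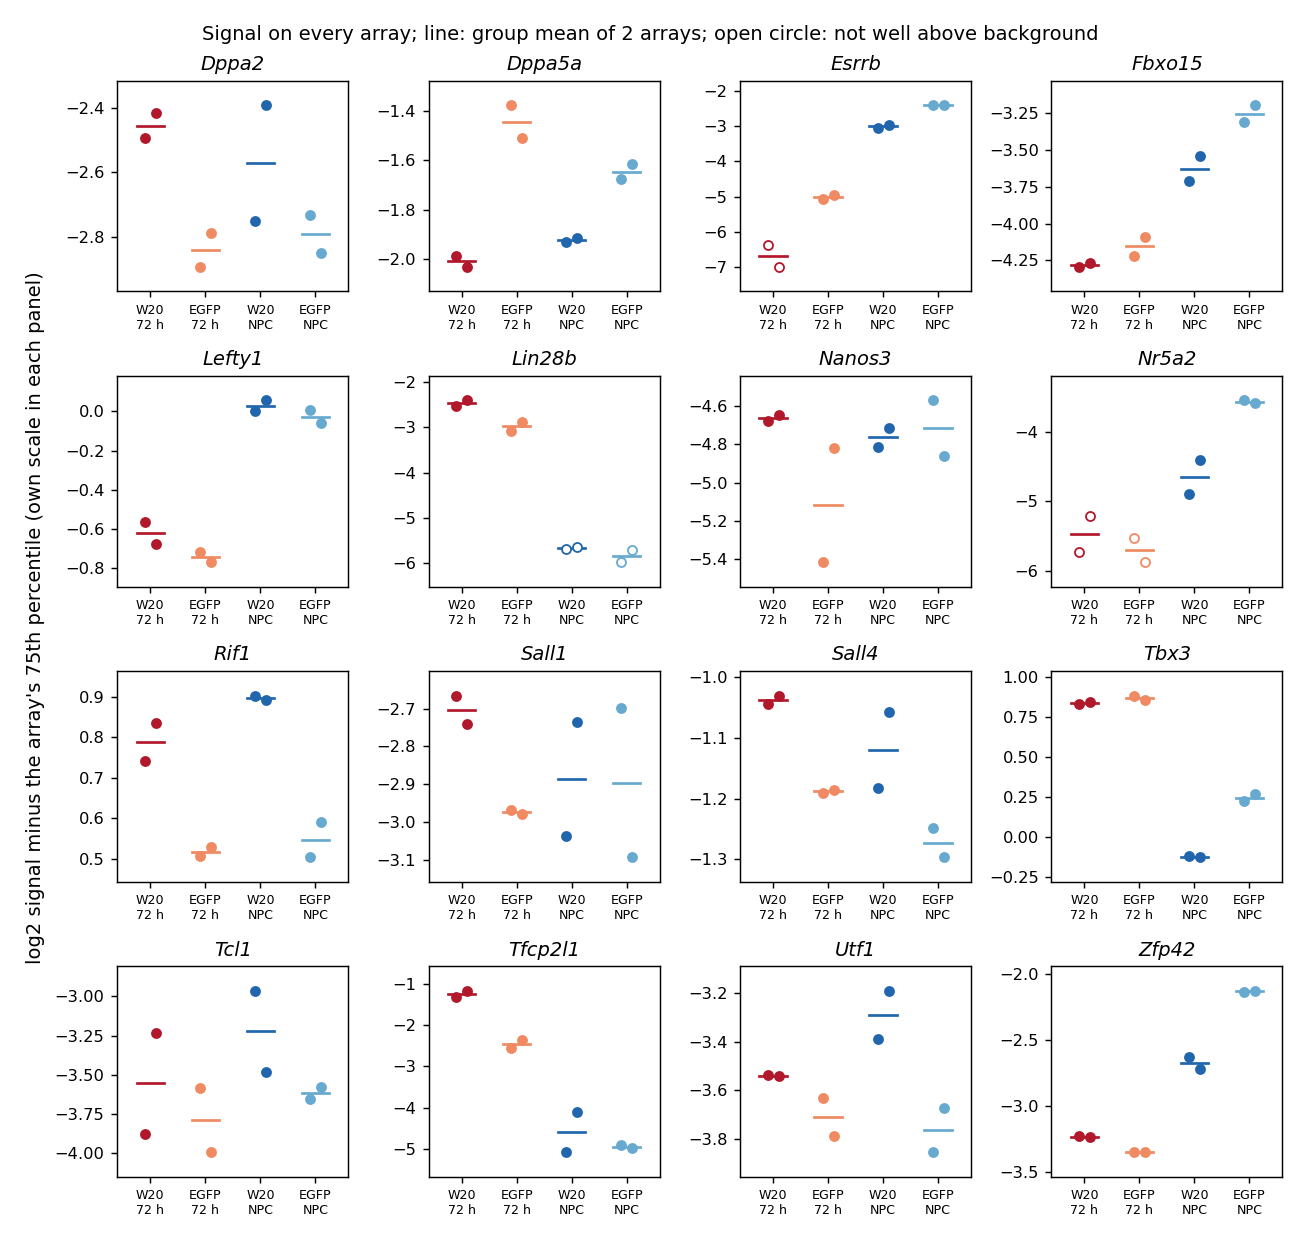
Signal of each of the 16 tested genes on every array, as log2 signal minus the array's 75th percentile, each panel on its own scale; points are arrays, lines are means of the 2 arrays of a group, and open circles are arrays not well above background. Tfcp2l1 and Lin28b are high at 72 h, Esrrb, Nr5a2 and Zfp42 are high in NPC, and Dppa5a is lower in W20 than in EGFP cells at both stages.

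The other 7 tested genes did not pass between 72 h and NPC with either W20 or EGFP. Rif1, a broadly used protein of replication timing and DNA repair, differed by -0.11 (95% interval -0.22 to 0.0057) with W20 and by -0.03 (-0.14 to 0.0845) with EGFP. Its second probe, well above background on all 8 arrays, gave 0.0989 and 0.11, so the 2 probes differed in sign here. Sall4, a zinc finger partner of the core factors, differed by 0.0827 (-0.0346 to 0.20) with W20 and by 0.0845 (-0.0327 to 0.20) with EGFP. Dppa2 differed by 0.12 (-0.18 to 0.41) with W20 and by -0.05 (-0.35 to 0.25) with EGFP. Utf1, a chromatin protein of embryonic stem cells, differed by -0.25 (-0.49 to -0.0128) with W20, with an adjusted p of 0.0556, and by 0.0551 (-0.18 to 0.29) with EGFP. Sall1, Tcl1 and Nanos3 had wider intervals, which with W20 ran from -0.19 to 0.55 for Sall1, from -1.01 to 0.35 for Tcl1 and from -0.39 to 0.60 for Nanos3, and with EGFP from -0.45 to 0.29, from -0.86 to 0.51 and from -0.90 to 0.0928.

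**Figure D3:**
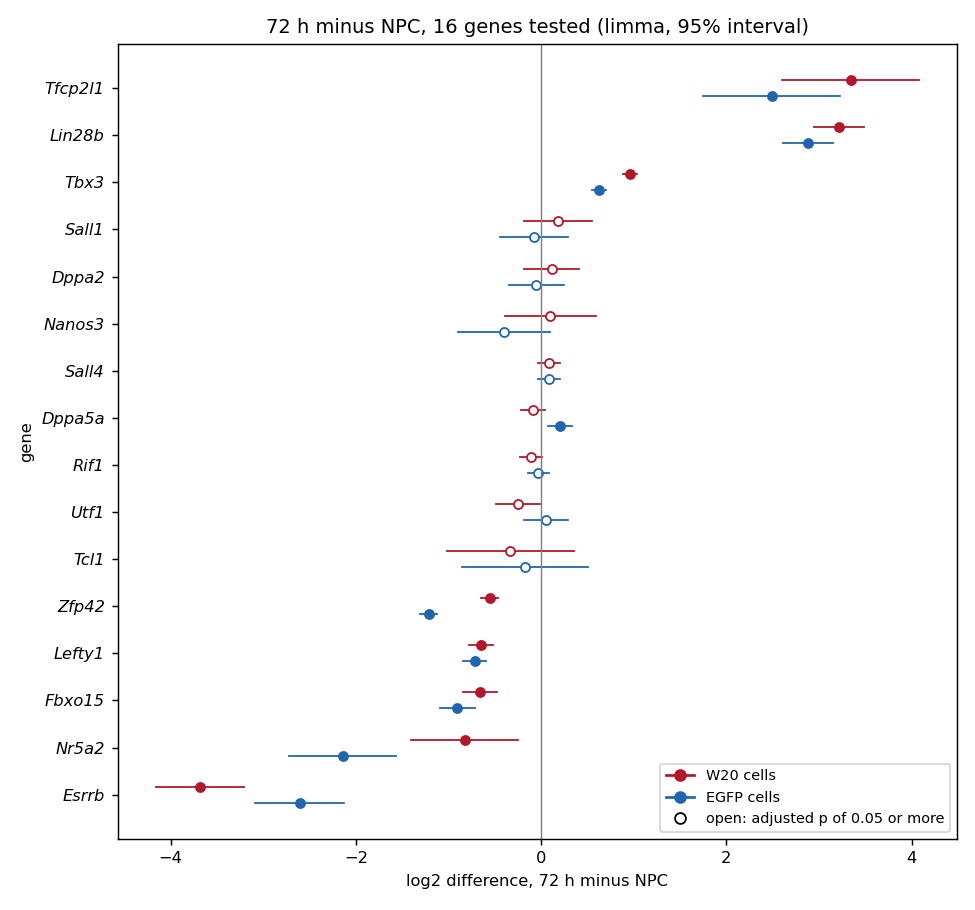
Log2 difference between 72 h and NPC (x axis) of the 16 tested genes (y axis) in W20 cells (red) and EGFP cells (blue), with 95% intervals from limma; filled points passed the test at an adjusted p under 0.05. Tfcp2l1 and Lin28b lie farthest to the right and Esrrb and Nr5a2 farthest to the left, and of these Lin28b (NPC), Nr5a2 (72 h) and Esrrb (W20 72 h) include arrays not well above background, so that their points are bounds in the text.

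W20 was set against EGFP within each stage, where most of the mesenchymal markers named above were lower with W20. At 72 h, Tfcp2l1, Lin28b, Dppa2, Rif1, Sall4 and Zfp42 were higher in W20 cells and Esrrb and Dppa5a lower. That is 6 of the 16 higher, 2 lower and 8 not past the test, where 52.7% of all genes passed, 28.4% higher and 24.4% lower. The share of the 16 called is thus near that of all genes, and their median difference was 0.20, against 0.0341 over all genes. Only the calls of Esrrb and Dppa5a held under every alternative that tested them. Esrrb was not tested in the one with probes well above background on all 8 arrays. With spike-in scaling 2 were higher and 2 lower, and the share of all called genes that were higher was 39.6% in place of 53.8%.

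Tfcp2l1 was 2.30-fold higher in W20 72 h cells (1.20 ± 0.300, adjusted p = 0.0185), with both W20 arrays above both EGFP arrays. The difference was 1.10 to 1.30 and the adjusted p 0.0565 to 0.0833 when any 1 of the 4 arrays at 72 h was left out, so that this call rests on having all 4. Its less bright probe, well above background on 1 array, gave 1.04. Lin28b was higher by 0.52 ± 0.109 (adjusted p = 0.0101), again without overlap. Its call ended narrowly without replicate 1 of EGFP 72 h (0.41, adjusted p = 0.0503) and without replicate 2 of W20 72 h (0.46, adjusted p = 0.0507).

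Rif1 was at 0.74 and 0.84 in W20 72 h cells, against 0.51 and 0.53 in EGFP 72 h cells, and at 0.90 and 0.89 in W20 NPC, against 0.50 and 0.59 in EGFP NPC. The W20 arrays lay above the EGFP arrays at both stages. The differences were 0.27 ± 0.0462 at 72 h (adjusted p = 0.0047) and 0.35 ± 0.0462 in NPC (adjusted p = 0.00166), and the second probe gave 0.27 and 0.28. With spike-in scaling the 72 h call ended (0.23, adjusted p = 0.0973).

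Dppa2 was at -2.49 and -2.42 in W20 72 h cells, against -2.89 and -2.79 in EGFP 72 h cells, and at -2.75 and -2.39 in W20 NPC, against -2.73 and -2.85 in EGFP NPC. The kinds of cells were apart at 72 h and overlapped in NPC. It was higher with W20 by 0.39 ± 0.120 at 72 h (adjusted p = 0.0389), while 0.22 ± 0.120 in NPC did not pass (adjusted p = 0.17). Leaving out replicate 1 of W20 NPC gave 0.40 in NPC (adjusted p = 0.0146).

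Sall4 was at -1.04 and -1.03 in W20 72 h cells, against -1.19 and -1.19 in EGFP 72 h cells, and at -1.18 and -1.06 in W20 NPC, against -1.25 and -1.30 in EGFP NPC. Without overlap at either stage, the differences were small, 0.15 ± 0.0474 at 72 h (adjusted p = 0.0404) and 0.15 ± 0.0474 in NPC (adjusted p = 0.0372). Zfp42 was higher by 0.12 ± 0.0375 at 72 h (adjusted p = 0.0436). For Dppa2, Sall4 and Zfp42 the 72 h call was lost on leaving out any single array of the 72 h groups or of EGFP NPC, with adjusted p of 0.0581 to 0.153 for Dppa2, 0.0599 to 0.128 for Sall4 and 0.0715 to 0.137 for Zfp42, and with spike-in scaling, with 0.0758 for Dppa2, 0.355 for Sall4 and 0.506 for Zfp42. The Zfp42 call at 72 h also ended with normexp (0.078, adjusted p = 0.176). Sall4's call in NPC ended in 12 of 19 alternatives. A dimmer Sall4 probe was not detected in any group, so the Sall4 differences rest on the brighter probe alone.

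Esrrb was lower in W20 72 h cells, where it was not well above background, by at least 1.14-fold (adjusted p = 0.00116), against a measured difference of -1.67 ± 0.193. Over the alternatives that difference ran from -1.99 to -0.19, the last with normexp, so its size is not settled. Dppa5a fell by 0.57 ± 0.0523 in W20 72 h cells (adjusted p = 0.000538). A less bright Dppa5a probe was well above background on the 4 EGFP arrays only, with measured differences of -1.55 at 72 h and -0.57 in NPC.

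In NPC, before Dox, Rif1, Sall4 and Utf1 were higher in W20 cells and Zfp42, Nr5a2, Esrrb, Fbxo15, Tbx3 and Dppa5a lower. Of the 16, 3 were higher, 6 lower and 7 did not pass, where 55.5% of all genes passed, 31.8% higher and 23.6% lower. The number called, 9, is near the share of all genes, with a median difference of 0.0321, against 0.0412. All calls other than those of Esrrb and Sall4 held under every alternative.

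Nr5a2 was 2.11-fold lower in W20 NPC (-1.08 ± 0.234, adjusted p = 0.0105), with both W20 arrays below both EGFP arrays, and the difference was -0.40 with normexp. Zfp42 fell by 0.54 ± 0.0375 (adjusted p = 0.00021), against -0.31 with normexp. Esrrb fell by 0.60 ± 0.193 (adjusted p = 0.0422), against -0.38 with normexp, a call that ended in 10 of 18 alternatives, with an adjusted p of 0.107 to 0.135 when an NPC array was left out and of 0.0671 when an EGFP 72 h array was. The 4 NPC arrays of each of these 3 genes did not overlap between W20 and EGFP.

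Fbxo15 fell by 0.37 ± 0.0748 in W20 NPC (adjusted p = 0.00774; -0.20 with normexp), Tbx3 fell by 0.37 ± 0.0311 (adjusted p = 0.000384) and Dppa5a fell by 0.28 ± 0.0523 (adjusted p = 0.00623). Utf1 was at -3.54 and -3.54 in W20 72 h cells, against -3.63 and -3.79 in EGFP 72 h cells, and at -3.39 and -3.19 in W20 NPC, against -3.85 and -3.67 in EGFP NPC. It was higher with W20 by 0.47 ± 0.0957 in NPC (adjusted p = 0.00809; 0.23 with normexp), while 0.17 ± 0.0957 at 72 h did not pass (adjusted p = 0.188).

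**Figure D4:**
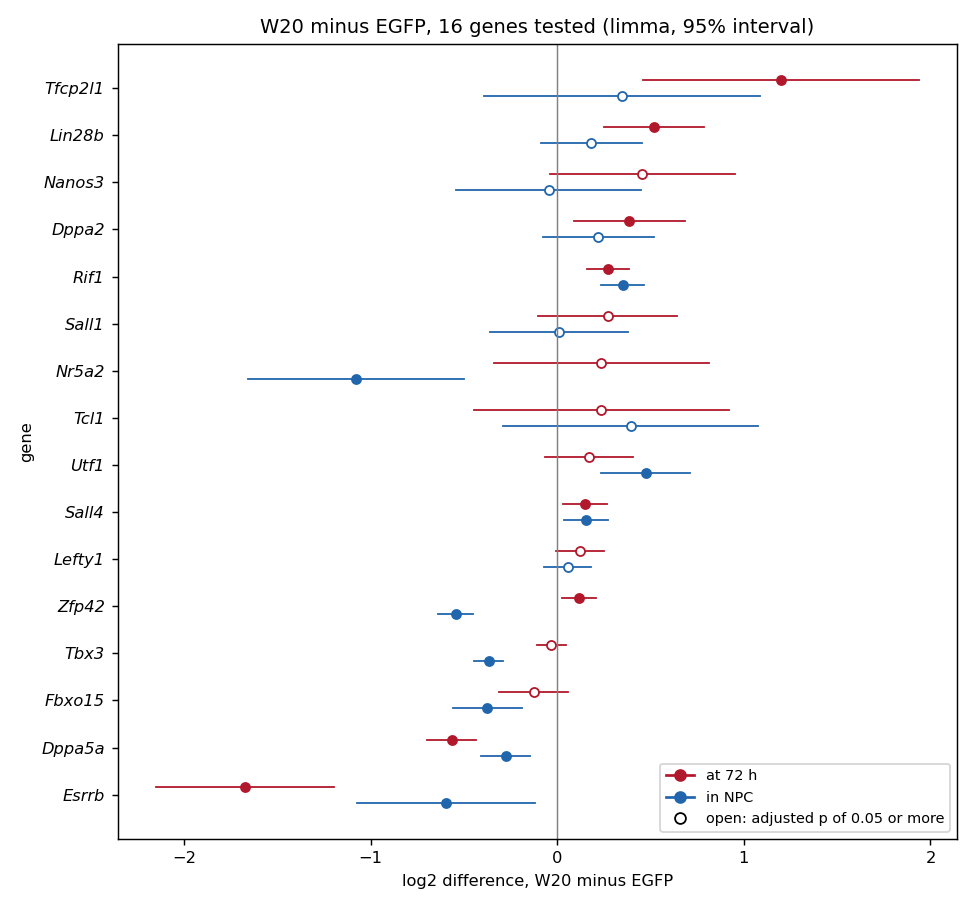
Log2 difference between W20 and EGFP (x axis) of the 16 tested genes (y axis) at 72 h (red) and in NPC (blue), with 95% intervals from limma; filled points passed the test at an adjusted p under 0.05. Dppa5a and Esrrb lie left of 0 at both stages, Rif1 and Sall4 right of it, and Zfp42 lies right at 72 h and left in NPC; Esrrb at 72 h, Nr5a2 at 72 h and Lin28b in NPC include groups not well above background.

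Sall1, Tcl1, Nanos3 and Lefty1 did not pass at either stage. Sall1, a relative of Sall4, was at -2.67 and -2.74 in W20 72 h cells, against -2.97 and -2.98 in EGFP 72 h cells, and at -3.04 and -2.74 in W20 NPC, against -2.70 and -3.09 in EGFP NPC. Its difference at 72 h, 0.27, did not pass (adjusted p = 0.18), but did with only the arrays compared in the fit (0.27, adjusted p = 0.0158) and with normexp (0.27, adjusted p = 0.0267). Tcl1, which enhances the activity of the kinase Akt, was at -3.88 and -3.23 in W20 72 h cells, against -3.58 and -4.00 in EGFP 72 h cells, and at -2.96 and -3.48 in W20 NPC, against -3.66 and -3.58 in EGFP NPC. Nanos3, an RNA-binding protein that keeps primordial germ cells alive, was at -4.68 and -4.65 in W20 72 h cells, against -5.42 and -4.82 in EGFP 72 h cells, and at -4.81 and -4.71 in W20 NPC, against -4.57 and -4.86 in EGFP NPC. For these 3 genes replicates of at least 1 group differed by as much as the groups did. Without replicate 2 of EGFP 72 h the Nanos3 difference at 72 h was 0.76 and passed, with replicate 1 of EGFP 72 h being its lowest array. With normexp that difference was 0.22 and also passed (adjusted p = 0.0403). Lefty1 differed by 0.12 ± 0.0517 at 72 h (adjusted p = 0.0935) and by 0.0554 ± 0.0517 in NPC (adjusted p = 0.4). The first of these passed with normexp (0.16, adjusted p = 0.0249) and without replicate 2 of W20 72 h (0.18).

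The difference between W20 and EGFP was then tested for a change from NPC to 72 h. Of the 16 genes, 3 had a greater W20 minus EGFP difference at 72 h than in NPC, 2 a lesser one and 11 did not pass, where 30.9% of all genes passed, 13.9% in the first direction and 16.9% in the second, so the share of the 16 is near that of all genes. For Zfp42 the W20 minus EGFP difference was 0.12 at 72 h and -0.54 in NPC, a change of 0.66 ± 0.0531 (adjusted p = 0.000794), or 0.39 with normexp. For Tbx3 it was -0.03 at 72 h and -0.37 in NPC, a change of 0.34 ± 0.044 (adjusted p = 0.00366). Dppa5a changed by -0.29 ± 0.0739 (adjusted p = 0.0328), a call that ended in 11 of 17 alternatives, and that of Tbx3 ended with spike-in scaling (adjusted p = 0.121). The remaining 2 calls are not measured changes. For Nr5a2 no 72 h array was well above background, so the computed 1.32 ± 0.331 (0.52 with normexp) sets a difference between background signals against the NPC difference. For Esrrb the W20 72 h arrays were not well above background, and the computed -1.08 ± 0.274 was 0.19 with normexp, so its direction is not established. Of the 5, the call of Zfp42 held in every alternative. Tfcp2l1, with 0.85 ± 0.424, did not pass (adjusted p = 0.184), so its higher level in W20 cells was not shown to differ between the stages. It did pass with normexp (0.89, adjusted p = 0.00107) and without replicate 2 of W20 NPC (1.34).

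Of 28 other genes of the pluripotency network, 25 were tested, 23 of them well above background on all 8 arrays. Pou5f1, which marks pluripotent cells, was so on 0. The list was taken whole, but with earlier results of these data known. In W20 cells 13 of the 25 were higher at 72 h than in NPC and 9 lower, and in EGFP cells 11 were higher and 9 lower, where 74.6% and 69.9% of all genes passed. W20 cells were higher than EGFP cells for 13 and lower for 4 at 72 h, and higher for 9 and lower for 9 in NPC, where 52.7% and 55.5% of all genes passed. The W20 minus EGFP difference was greater at 72 h than in NPC for 8 of the 25 and lesser for 5, beside 30.9% of all genes.

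Tet2, which oxidises methylated DNA, was higher at 72 h by 2.60 ± 0.144 with W20 (adjusted p = 1.67e-05) and by 1.61 ± 0.144 with EGFP (adjusted p = 0.000166), and fell by 0.67 in W20 NPC, against EGFP NPC (adjusted p = 0.0104). With normexp these were 1.65, 1.05 and -0.30. Its W20 effect changed by 0.99 ± 0.204 (adjusted p = 0.0165; 0.60 with normexp), a call that ended without replicate 2 of W20 NPC (0.97, adjusted p = 0.0516), replicate 1 of EGFP 72 h (0.87, adjusted p = 0.0517) or replicate 2 of W20 72 h (0.90, adjusted p = 0.0515).

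Sox2, a core factor that neural progenitors also use, fell by 0.71 ± 0.047 in W20 NPC, against EGFP NPC (adjusted p = 0.000192), and its W20 effect changed by 0.85 ± 0.0664 (adjusted p = 0.000725). Klf4 was 0.94 ± 0.0347 higher in W20 NPC (adjusted p = 5.68e-05), and Klf5 had a W20 effect that changed by -0.81 ± 0.0556 (adjusted p = 0.000505). Mybl2, a cell cycle factor, was higher with W20 by 0.66 ± 0.0434 at 72 h (adjusted p = 0.000183) and by 0.72 ± 0.0434 in NPC (adjusted p = 0.000156). Alpl, the alkaline phosphatase stained in colonies of reprogrammed cells, was higher with W20 at 72 h by 0.89 ± 0.124 (adjusted p = 0.00225; 0.53 with normexp). Zfp57, which guards imprinted marks, fell by 1.00 ± 0.129 with W20 at 72 h, against EGFP (adjusted p = 0.00176), and in W20 cells fell by 1.69 ± 0.129 over the 72 h (adjusted p = 6.7e-05), against -0.46 and -0.98 with normexp. Its W20 effect changed by -0.67 ± 0.183 (adjusted p = 0.0399), a call that ended in 9 of 17 alternatives, with -0.20 under normexp. Epcam, an epithelial adhesion protein, fell by 1.17 ± 0.262 over the 72 h with EGFP (adjusted p = 0.0083; -0.69 with normexp).

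Of 12 genes of the primed epiblast and early lineages, 7 were tested. In W20 cells 2 were higher and 1 lower at 72 h than in NPC, and in EGFP cells 3 were higher and 1 lower, beside 74.6% and 69.9% of all genes that passed. With W20 against EGFP, 0 were higher and 1 lower at 72 h, and 1 was higher and 1 lower in NPC, beside 52.7% and 55.5% of all genes. The W20 effect was lesser at 72 h for 2, beside 30.9% of all genes. Fgf5, the usual marker of the primed epiblast, was at least 1.43-fold higher in W20 NPC than in EGFP NPC, where it was at background (adjusted p = 0.00113), and at least 2.39-fold higher at 72 h than in NPC with EGFP (adjusted p = 5.5e-05). With normexp these differences were only 0.27 and 0.46 log2 units. Zic2 was at background in NPC and at least 1.73-fold higher at 72 h with W20 and 1.89-fold with EGFP, against 0.48 and 0.42 log2 units with normexp. It passed the filter only through the 72 h groups and so had to differ.

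Of 26 other germline genes, 23 had a probe, 11 were tested and 7 were well above background on all 8 arrays, while 7 were so on none. In W20 cells 3 of the 11 were higher and 6 lower at 72 h than in NPC, and in EGFP cells 3 were higher and 4 lower, beside 74.6% and 69.9% of all genes. W20 cells were higher than EGFP cells for 2 and lower for 3 at 72 h, and higher for 3 and lower for 1 in NPC, beside 52.7% and 55.5%. The W20 effect was lesser at 72 h for 2, beside 30.9%. Stra8, a retinoic acid-induced gene that opens meiosis, was at -3.51 and -3.52 in W20 72 h cells and -3.67 and -3.59 in EGFP 72 h cells, against 0.42 and 0.33 in W20 NPC and 0.0471 and -0.081 in EGFP NPC. Its 72 h arrays lay together, far below the NPC arrays. Stra8 fell by 3.89 ± 0.0575 with W20 (14.8-fold, adjusted p = 2.34e-07) and fell by 3.61 ± 0.0575 with EGFP (12.2-fold, adjusted p = 4.39e-07).

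Tex14, which builds the bridges between germ cells, was at background at 72 h and at least 4.51-fold lower than in NPC with EGFP, against -0.78 log2 units with normexp. It passed the filter only through NPC and so had to differ. Ifitm1, an interferon-induced membrane protein of primordial germ cells, fell by 0.57 ± 0.0427 in W20 72 h cells, against EGFP 72 h cells (adjusted p = 0.000281). Taf7l, a germ cell partner of the basal transcription machinery, was at background in W20 72 h cells and at least 1.87-fold lower than in EGFP 72 h cells (adjusted p = 0.0386), and at least 1.93-fold lower than in W20 NPC (adjusted p = 0.0251). Its replicates differed widely, with -3.50 and -5.11 in EGFP 72 h cells. Both Taf7l calls ended without replicate 2 of W20 72 h (-1.37, adjusted p = 0.161, and -1.42, adjusted p = 0.12), and the first also without replicate 1 of EGFP 72 h (-1.20, adjusted p = 0.142) or any 1 NPC array (0.0596 to 0.0624) and with normexp (-0.35, adjusted p = 0.0595), the second without either W20 NPC array (0.0619 and 0.0963). With normexp the second difference was -0.42.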

How the data were processed

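RNA of 8 samples was measured, grouped by their titles. The deposited scanner files hold intensities on a linear scale written by Agilent's Feature Extraction software (10.7.3.1), per the file headers. Its processed signal, already background-corrected, was taken as log2 minus the array's 75th percentile. Control and outlier spots were left out and spots of a probe averaged. RefSeq (GRCm38.p6) named 27584 of 41174 probes, and 13590 stayed unnamed. Of a gene's probes the brightest was used, and kept if 1 group or more had it well above background on both of its arrays. One limma 3.58.1 model in R 4.3.3 held the 4 group means, with 4 residual and 1.758 prior degrees of freedom and two-sided tests of 5 comparisons. It was tested on simulated data. The number of arrays limits the precision. No column of mean signal was used here, so normexp took the median signal. The deposited value table, on a log2 scale per its values, matched the scanner within 0.01 for 100% of probes in the 4 NPC columns after a shift of 9.66 to 9.71, and for 4.13% to 14.13% in the 72 h columns, so it was an alternative for NPC only. Its column medians ran from -3.91 to -3.73, and its centring is unstated. Members, lists and tests were chosen with earlier results of these data known. Every tested member is given with its values, and of the other lists the 3 called genes with the largest rise and the 3 with the largest fall in each comparison, of which some are not reported here. Replicate numbers were not taken to pair the samples. Alternatives covered background correction, scaling, filtering, probes, the samples fitted, the replicate block, the variance model and single arrays.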

Additional observations from a re-analysis of the deposited data

Results flagged for a closer look

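The W20 minus EGFP difference of 5 of the 16 tested genes was not the same at 72 h and in NPC, by the interaction term of the model (limma, adjusted over all genes tested, n = 2 arrays per group). Of all genes 30.9% passed this test, near the share of the 16. Of the 5 calls only that of Zfp42 held in every alternative. For Zfp42 it changed by 0.66 (SE 0.0531, adjusted p = 0.000794), with both W20 arrays above both EGFP arrays at 72 h and both below them in NPC. For Tbx3 it changed by 0.34 (SE 0.044, adjusted p = 0.00366), with W20 below EGFP in NPC and nearly level with it at 72 h, a call that ended with spike-in scaling. For Nr5a2 the computed change was 1.32 (SE 0.331), but none of the 72 h arrays was well above background, so it is not a measured change, and the call ended in 7 of 16 alternatives. For Dppa5a it changed by -0.29 (SE 0.0739, adjusted p = 0.0328), with W20 below EGFP at both stages, and the call ended in 11 of 17 alternatives. For Esrrb the computed change was -1.08 (SE 0.274), but the W20 72 h arrays were not well above background and normexp gave 0.19, so no direction is established, and the call ended in 9 of 16 alternatives. Stage and slide coincide in all 5.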

How the results depend on the processing

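Of 39 called differences of the tested members, 25 kept their direction and their call in every alternative that tested them, and 1 reversed: the change of the W20 effect on Esrrb was 0.19 with normexp (adjusted p = 0.0746), against -1.08, and the cause was not tested. The 25 include the stage differences of Lin28b in both kinds of cells and of Nr5a2 with EGFP, which the filter forced. Lin28b, Nr5a2 and Esrrb were not tested in the alternative with probes well above background on all 8 arrays. Of the 41 that were not called, 26 stayed so throughout. At 72 h, 8 members were called, 4 with spike-in scaling (where 30.5% of all genes were called, in place of 52.7%) and 3 to 8 with 1 array left out. For the change of the W20 effect, 5 were called, 3 with spike-in scaling (14.0% of all genes, in place of 30.9%), 3 with no filter on dim probes, 3 with probes well above background on all 8 arrays, where fewer genes were tested, and 2 to 4 with 1 array left out. With 1 array left out the counts were 7 to 10 in NPC (9 with all), 7 to 9 between stages with W20 (8 with all) and 8 to 10 with EGFP (9 with all). With normexp 6 members were called for the change of the W20 effect, 6 higher and 0 lower, in place of 3 higher and 2 lower. Of all genes 31.1% were called there, and the share of these that were higher was 53.4%, in place of 45.2%. Lin28b (0.40, adjusted p = 0.00635) and Fbxo15 (0.31, adjusted p = 0.0104) were among the 6. With no filter on dim probes 12 of the 30 genes with a probe were called at 72 h, 10 of them higher. Of all genes 46.6% were then called, and the share of all called genes that were higher was 64.5%. The lowest signals well above background there were -5.37 and -5.04 in W20 72 h arrays, against -5.67 and -5.84 in EGFP 72 h arrays. Single arrays decided some values that were not called: without replicate 2 of W20 NPC, Dppa2 was 0.29 higher at 72 h than in NPC with W20 (adjusted p = 0.0229), without replicate 1 of W20 NPC, Tfcp2l1 was 0.84 higher in W20 than in EGFP NPC (adjusted p = 0.00487), and without replicate 2 of EGFP 72 h, Nanos3 fell by 0.70 over the 72 h with EGFP (adjusted p = 0.00748). Over the 72 h with W20, Sall4 passed without replicate 2 of W20 NPC (0.14), Utf1 without replicate 1 of W20 NPC (-0.35) and Rif1 without replicate 2 of W20 72 h (-0.15). Utf1 and Rif1 also passed there with no array left out. Utf1 did so with median scaling (-0.24, adjusted p = 0.0466) and with probes well above background on all 8 arrays (-0.25, adjusted p = 0.0343). Rif1 did so with normexp (-0.14, adjusted p = 0.0235) and with a variance that follows intensity (-0.11, adjusted p = 0.0424). The replicate numbers were not taken to pair the arrays, since the labels do not say that they do. The correlations of same-numbered replicates' deviations were not all over 0.1, and ran from -0.0907 to 0.148 over 12154 genes. They do not settle whether the arrays were paired. With the replicate block, 8 members were called in NPC, 6 at 72 h, 8 between stages with W20, 9 with EGFP and 7 for the change of the W20 effect. Of all genes, 55.4%, 52.4%, 74.8%, 70.0% and 29.4% were called in these comparisons. The block ended the calls of Zfp42 and Sall4 at 72 h (adjusted p = 0.0536 and 0.0558) and of Sall4 and Esrrb in NPC (0.0519 and 0.0585), while Lin28b passed in NPC (0.0483) and Lin28b and Fbxo15 for the change of the W20 effect (0.0393 and 0.0397). The slide as a random block was not run, since slide and stage coincide. Signal over background limits Esrrb at 72 h with W20, Nr5a2 at 72 h and Lin28b in NPC to bounds.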
